A study of Mus musculus with 12 samples.

Results

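The TGF-beta ligands, receptors and latent binding proteins were followed in subcutaneous tumours grown from AB1-HA, mouse mesothelioma cells into which the haemagglutinin gene of influenza was introduced. The 10 genes were taken by name out of 35999 gene symbols, and all 10 had enough counts to be among the 17940 genes tested. They are the ligands Tgfb1, Tgfb2 and Tgfb3, the receptors Tgfbr1, Tgfbr2 and Tgfbr3, and the latent binding proteins Ltbp1, Ltbp2, Ltbp3 and Ltbp4. The 6 anti-CD4 tumours came from male BALB/c mice aged 8 to 10 weeks. These hosts received 100 µg of an anti-CD4 antibody on days -3, 0 and 7 relative to inoculation. The 6 tumours of the other group came from mice of the same strain, sex and age that received PBS on the same days. Every tumour was taken on day 9, and its RNA was sequenced whole, with tumour cells, stroma and infiltrate together. The antibody depletes CD4-bearing cells, helper and regulatory T cells alike. The labels do not say which mouse carried which tumour, so p-values measure the spread between these tumours.

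TGF-beta is secreted as an inactive complex in which the mature dimer stays held by its own propeptide. The propeptide is usually bonded to a latent TGF-beta binding protein that anchors it to fibronectin and fibrillin in the matrix, and integrins or proteases then release it. The freed ligand binds the type II receptor, which phosphorylates the type I receptor, which in turn phosphorylates Smad2 and Smad3. In tumours the pathway is known for driving matrix production by fibroblasts and for restraining T cells, and regulatory T cells are among its producers.

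Library totals were 34.45 to 62.06 M counts in anti-CD4 tumours, against 30.75 to 41.93 M counts in PBS tumours. Cd4, the antigen of the antibody, averaged 1.31 ± 0.498 CPM (counts scaled to a common library size) in anti-CD4 tumours and 6.31 ± 2.34 CPM in PBS tumours (SD, n = 6 each), and every anti-CD4 tumour lay below every PBS tumour. Of the mesothelial markers, Msln, the mesothelin gene, averaged 122 CPM in anti-CD4 tumours and 126 CPM in PBS tumours, while Krt19 was under 1 CPM in every tumour. Of the 4 mesothelial markers tested, 1 rose, Pdpn, at 34.2 CPM in anti-CD4 and 27.2 CPM in PBS tumours (log2 fold change 0.33, edgeR adjusted p = 0.0186). The 9 fibroblast markers summed to 26891 to 34364 CPM in anti-CD4 tumours, against 14988 to 27147 CPM in PBS tumours, and PBS 6 held the lowest of these sums. Summed levels of 6 regulatory T cell markers were 11.7 to 22 CPM in anti-CD4 tumours, against 36.4 to 58.3 CPM in PBS tumours.

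Of the 10 genes, 3 rose in the anti-CD4 tumours, namely Tgfb3, Tgfbr2 and Tgfbr3, and 1 fell, Ltbp2. Across all genes tested, 2.95% rose and 2.33% fell at the same threshold, a Benjamini-Hochberg adjusted p under 0.05 in the edgeR quasi-likelihood test, so that 55.9% of the calls were higher; with upper quartile scaling 35.5% were. The changes were small, at 1.22-fold to 1.3-fold for the genes that rose and 0.77-fold for Ltbp2. The median log2 fold change (anti-CD4 over PBS) of the 10 genes was 0.18, beside -0.00033 over all genes tested. In 2 of the 10, Tgfb3 and Tgfbr2, every anti-CD4 tumour lay above every PBS tumour, which held for 1.93% of all genes tested; 1.19% lay wholly below, as 0 of the 10 did, and 3.12% were apart in either direction.

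**Figure D1:**
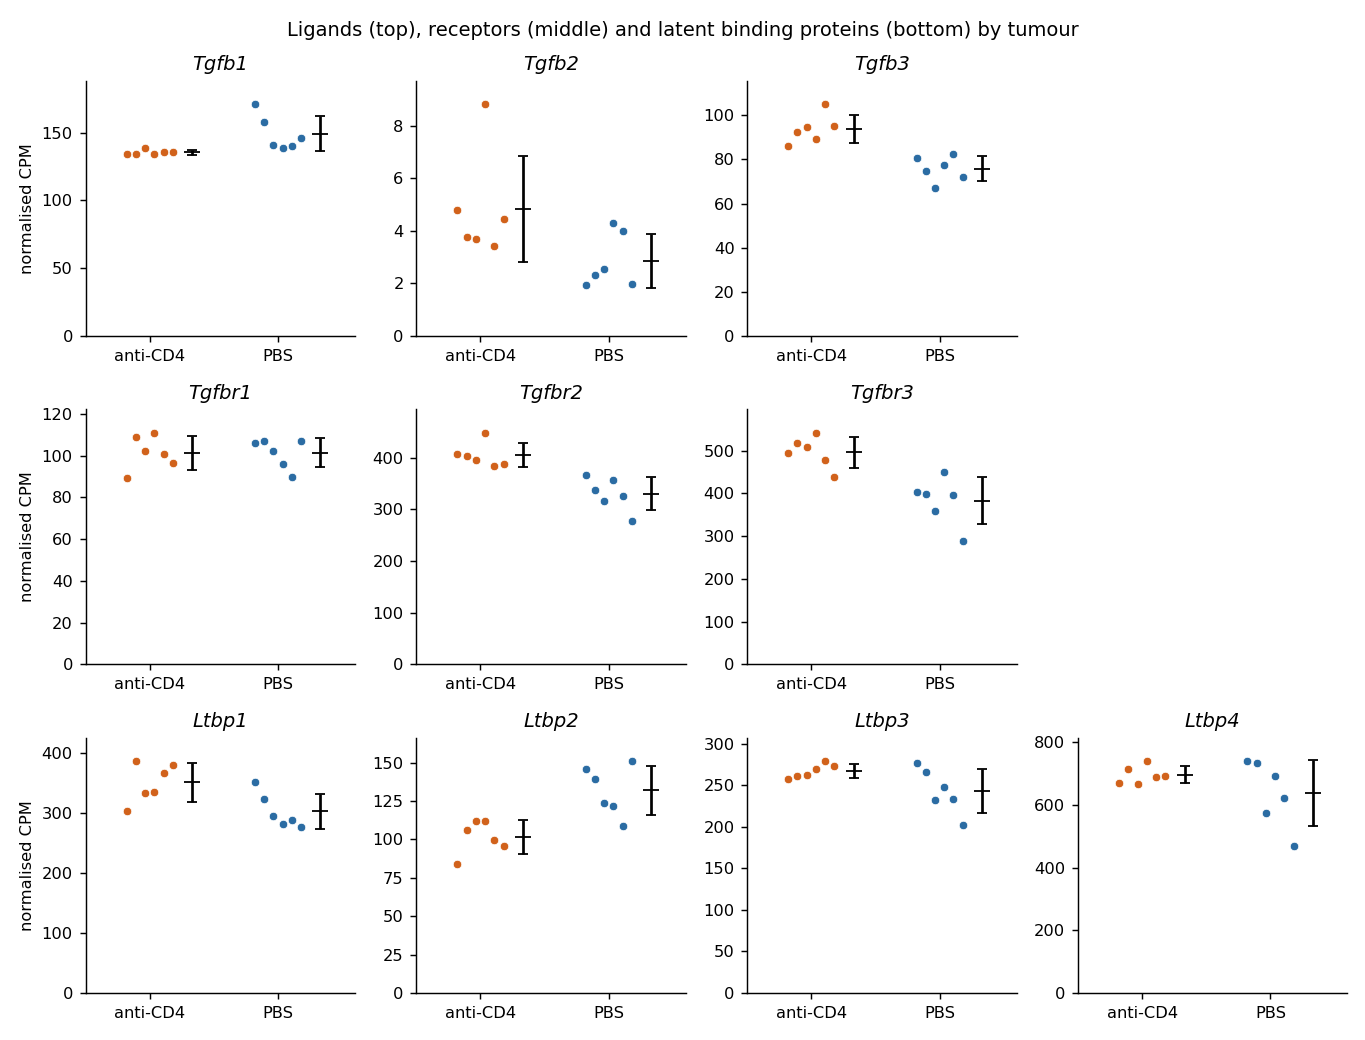
Normalised CPM of each gene in every tumour, anti-CD4 tumours in orange and PBS tumours in blue, with the mean and SD of 6 tumours beside each group and every axis starting at 0. Tgfb3 and Tgfbr2 do not overlap between groups, and 1 anti-CD4 tumour stands apart in Tgfb2 at 8.83 CPM.

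The calls were lost under a fit that takes up library depth. When the log2 library total entered the fit as a covariate, the log2 fold changes were 0.29 for Tgfb3, 0.29 for Tgfbr2, 0.45 for Tgfbr3 and -0.45 for Ltbp2. In this fit edgeR called 0 of the 10 (adjusted p = 0.213, 0.24, 0.184 and 0.191), with 6 at an unadjusted p under 0.05. Over all 17940 genes tested it called 0 higher and 5 lower, with 2193 at an unadjusted p under 0.05.

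Tgfb3, the ligand isoform of mesenchymal tissues, lies on chromosome 12 from 86056745 to 86079041 in GRCm38. Its exons share 257 bases with Gm48008 and 163 with Gm37804 on the opposite strand. It was at 86.2, 93.6 and 105 CPM (lowest, median and highest) in anti-CD4 tumours, against 67.1, 76.2 and 82.4 CPM in PBS tumours. The groups did not overlap, and the means were 93.8 ± 6.55 CPM in anti-CD4 and 75.8 ± 5.68 CPM in PBS tumours (SD, n = 6 each). Tgfb3 rose by 0.31 on the log2 scale (SE 0.06, edgeR adjusted p = 0.021). The call was lost without any 1 of PBS 3, PBS 6, anti-CD4 2, anti-CD4 5 and anti-CD4 6, with log2 fold changes of 0.27 to 0.34 and adjusted p-values of at most 0.0625 over the 12 fits that leave out a tumour.

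Tgfb1, the isoform of leukocytes, platelets and many other cells, lies on chromosome 7 from 25687002 to 25705077. It was at 134, 135 and 139 CPM in anti-CD4 tumours, against 139, 143 and 171 CPM in PBS tumours. The anti-CD4 tumours were close together, with a coefficient of variation of 1.5%, against 8.62% in PBS tumours. All but 1 of the anti-CD4 tumours lay below the lowest PBS tumour, yet the difference did not pass (edgeR adjusted p = 0.116, log2 fold change -0.14, SE 0.053). With upper quartile scaling in place of TMM, the trimmed mean scaling used throughout, Tgfb1 did pass. Regulatory T cell markers moved in the same direction, with all 5 tested markers lower (Foxp3, Il2ra, Ikzf2, Tnfrsf18 and Ccr8) and Ctla4 at 0 in every anti-CD4 tumour after rounding. Pan T cell markers lay lower too, with sums of 6.29 to 27.8 CPM in anti-CD4 tumours, against 22.9 to 48.3 CPM in PBS tumours. All 6 pan T cell markers had a negative log2 fold change, and 2 of them passed, Cd2 and Cd5. Macrophage markers summed to 648 to 823 CPM in anti-CD4 tumours, against 593 to 1163 CPM in PBS tumours, and none of the 6 passed. Of the 6, 4 lay lower and 2 higher, with C1qb farthest down (log2 fold change -0.52, edgeR adjusted p = 0.104). Platelet markers summed to 14.7 to 17.3 CPM in anti-CD4 and 9.49 to 16.2 CPM in PBS tumours, with Ppbp, Gp9 and Treml1 under 1 CPM throughout. The part of these cells in the Tgfb1 level was not tested, and in bulk tissue fewer cells of a type and less RNA per cell cannot be told apart.

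Tgfb2, the isoform that depends most on betaglycan for receptor binding, lies on chromosome 1 from 186622792 to 186705989 and was the scarcest of the 10 genes. It was at 3.44, 4.12 and 8.83 CPM in anti-CD4 tumours, against 1.94, 2.45 and 4.31 CPM in PBS tumours, from 78 to 444 counts per tumour. Anti-CD4 4 held the highest value, and 3 of the anti-CD4 tumours lay above the highest PBS tumour. Its log2 fold change of 0.76 (SE 0.27) was the largest of the 10 genes and did not pass (edgeR adjusted p = 0.0933). Without anti-CD4 4 it was 0.50. With DESeq2 Tgfb2 did pass (adjusted p = 0.0374).

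Tgfbr2 and Tgfbr3 rose, whereas Tgfbr1 did not pass the test. Tgfbr2 encodes the type II receptor, the kinase that binds the ligand and starts the signal, and lies on chromosome 9 from 116084293 to 116175360. The 250 bases upstream of its RefSeq start are shown beside those of Tgfbr1, its signalling partner, and Ltbp2, the gene that fell, because the 3 are described together here. Sequences are RefSeq, build GRCm38.p6, 5′ to 3′ on the strand of the gene. Capitals mark CAGAC, the core of the Smad binding element, and GGGCGG, the GC box, on either strand; these matches do not overlap each other.
Tgfbr2 (chr9:116175364-116175613, minus strand): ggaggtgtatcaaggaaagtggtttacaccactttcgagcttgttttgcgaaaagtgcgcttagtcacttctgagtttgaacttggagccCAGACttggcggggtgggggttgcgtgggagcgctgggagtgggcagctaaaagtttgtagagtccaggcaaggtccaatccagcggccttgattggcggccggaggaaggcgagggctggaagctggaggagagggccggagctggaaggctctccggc
Tgfbr1 (chr4:47352972-47353221, plus strand): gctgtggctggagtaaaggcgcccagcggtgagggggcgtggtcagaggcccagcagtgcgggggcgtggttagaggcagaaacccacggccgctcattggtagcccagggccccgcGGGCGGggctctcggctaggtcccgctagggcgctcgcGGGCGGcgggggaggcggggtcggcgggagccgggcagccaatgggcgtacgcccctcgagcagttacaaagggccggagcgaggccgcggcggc
Ltbp2 (chr12:84876492-84876741, minus strand): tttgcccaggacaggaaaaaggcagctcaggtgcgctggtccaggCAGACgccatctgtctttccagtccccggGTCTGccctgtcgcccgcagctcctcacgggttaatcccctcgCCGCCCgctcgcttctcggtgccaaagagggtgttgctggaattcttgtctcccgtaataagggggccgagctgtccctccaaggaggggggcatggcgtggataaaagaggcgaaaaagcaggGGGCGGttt
The Tgfbr2 window holds 1 CAGAC match and no GGGCGG match, the Tgfbr1 window no CAGAC and 2 GGGCGG matches, and the Ltbp2 window 2 of each. Over 32851 RefSeq promoter windows of the same length, 42.2% hold CAGAC and 32.7% hold GGGCGG, on either strand. The motifs TGANTCA (the AP-1 site, in 6.7% of windows) and TATAAA (the TATA box, in 12.4%) were also searched on both strands and are in none of the 3. The GC content is 58.4% upstream of Tgfbr2, 74.8% upstream of Tgfbr1 and 61.6% upstream of Ltbp2, beside a median of 52.4% over all windows. RefSeq windows were matched for 8 of the 10 genes. Tgfb3 and Tgfbr3 had none, so Tgfbr2 is the only gene that rose with a window. A second RefSeq start of Tgfbr1, not shown, has 1 CAGAC and 0 GGGCGG matches in its window (chr4:47385966-47386215), so the contrast with Tgfbr2 holds for the first start.

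Tgfbr2 was at 383, 399 and 448 CPM in anti-CD4 tumours, against 278, 332 and 366 CPM in PBS tumours. The groups did not overlap. Tgfbr2 rose by 0.29 on the log2 scale (SE 0.066, edgeR adjusted p = 0.032). Tgfbr3, the co-receptor betaglycan that presents ligand to the type II receptor, lies on chromosome 5 from 107106570 to 107289629. It was at 438, 502 and 542 CPM in anti-CD4 tumours, against 289, 397 and 451 CPM in PBS tumours, and the groups overlapped in PBS 4 and anti-CD4 6. Tgfbr3 rose by 0.38 (SE 0.089, edgeR adjusted p = 0.035). Tgfbr1, the type I receptor kinase on chromosome 4 from 47353222 to 47414931, was at 89.1, 102 and 111 CPM in anti-CD4 tumours and 90.0, 104 and 107 CPM in PBS tumours. The groups lay over each other, with an edgeR adjusted p of 0.978 and a log2 fold change of 0.0033 (SE 0.061, 95% interval -0.12 to 0.12), whose sign turned with the scaling (-0.043 with upper quartile scaling).

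The Tgfbr2 call was lost without any 1 of PBS 2, 3, 5 and 6 and anti-CD4 2, 5 and 6 (log2 fold change 0.25 to 0.33, adjusted p up to 0.0801 over the 12 fits), and that of Tgfbr3 without any 1 of PBS 2, 3 and 5 and anti-CD4 2, 4, 5 and 6 (0.31 to 0.43, adjusted p up to 0.0925). Both were also lost without anti-CD4 3 and 4 together. With upper quartile scaling the Tgfbr3 call was lost too (edgeR adjusted p = 0.0537). Of the 9 fibroblast markers, 2 rose, Pdgfra and Lum, and 0 fell (22.2% called, beside 5.28% of all genes tested). Their edgeR adjusted p-values were 0.0422 and 0.0337, and whether these 2 calls hold without single tumours was not examined. Of the others, Thy1 lay in the opposite direction (62.2 CPM in anti-CD4 and 103 CPM in PBS tumours, log2 fold change -0.72, edgeR adjusted p = 0.095). The fibroblast sums consist mostly of Col3a1, Col1a1 and Col1a2, none of which passed, and the lowest sum, in PBS 6, came with the lowest Tgfbr2 and Tgfbr3 values of the 12 tumours. The part of fibroblast content in the receptor levels was not tested.

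**Figure D2:**
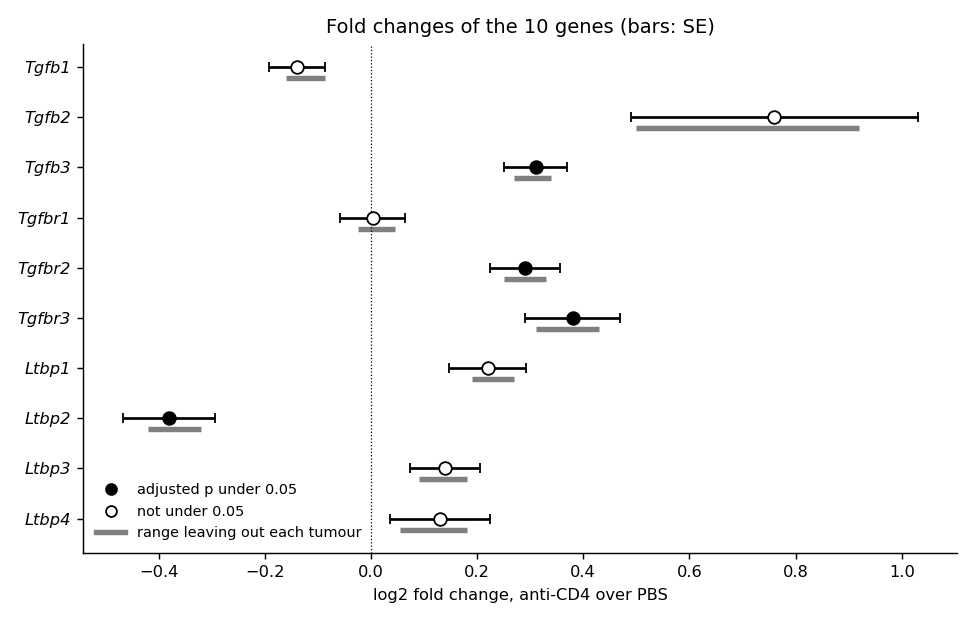
Log2 fold change of each gene, anti-CD4 over PBS, on the x axis, with its SE as a bar, filled where the edgeR adjusted p was under 0.05. Grey bars give the range over the 12 fits that each leave out 1 tumour, and all of them stay on 1 side of 0 except that of Tgfbr1.

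Ltbp2 was the gene of the 10 that fell. It encodes a latent binding protein homologue that joins elastic microfibrils but, unlike its relatives, is not known to bond to latent TGF-beta, and lies on chromosome 12 from 84783212 to 84876532. Ltbp2 was at 83.7, 103 and 112 CPM in anti-CD4 tumours, against 109, 132 and 151 CPM in PBS tumours. The groups overlapped through PBS 5, and 5 of the PBS tumours lay above every anti-CD4 tumour. Ltbp2 fell by 0.38 on the log2 scale (SE 0.087, edgeR adjusted p = 0.0333). The call was lost without any 1 of PBS 2, 3 and 6 and anti-CD4 2, 5 and 6 (log2 fold change -0.42 to -0.32, adjusted p up to 0.0867 over the 12 fits). An antisense gene, D030025P21Rik, shares 764 exonic bases with Ltbp2 on the opposite strand, and since the sources here do not state a strand setting for the counting, part of the Ltbp2 count is uncertain.

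The other latent binding proteins lay slightly higher in anti-CD4 tumours and did not pass. Ltbp1, which anchors latent complexes of all ligands to fibronectin and fibrillin, lies on chromosome 17 from 75005568 to 75392512. It was at 303, 351 and 386 CPM in anti-CD4 tumours, against 276, 291 and 351 CPM in PBS tumours (log2 fold change 0.22, SE 0.073, edgeR adjusted p = 0.0857). Without PBS 1 or without anti-CD4 1 Ltbp1 did pass, with adjusted p-values down to 0.0344, as it did with DESeq2 (0.0428) and limma voom (0.00409), and with the library total as a covariate its log2 fold change was 0.096.

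Ltbp3, a binding partner of latent complexes in bone and other tissues, lies on chromosome 19 from 5740904 to 5758532. It was at 258, 266 and 279 CPM in anti-CD4 tumours, against 202, 241 and 277 CPM in PBS tumours (log2 fold change 0.14, SE 0.066, edgeR adjusted p = 0.192). Ltbp4, an elastic fibre protein that binds latent Tgfb1 product weakly, lies on chromosome 7 from 27305136 to 27337692 and was at 668, 692 and 739.6 CPM in anti-CD4 tumours, against 469, 657 and 740.0 CPM in PBS tumours (log2 fold change 0.13, SE 0.094, edgeR adjusted p = 0.387). PBS 6 was lowest in Ltbp1, Ltbp3 and Ltbp4 alike, and Ltbp3 and Ltbp4 varied more between PBS tumours, with coefficients of variation of 11% and 16.5%, than between anti-CD4 tumours, at 2.95% and 3.95%.

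To compare genes with each other, counts were divided by the length of the merged exons in GENCODE M21, giving CPM per kilobase. On this scale Ltbp4 was highest of the latent binding proteins, at 108 ± 4.25 in anti-CD4 and 98.7 ± 16.3 in PBS tumours, followed by Ltbp1 (32.8 ± 3.02 and 28.3 ± 2.7), Ltbp3 (29.5 ± 0.87 and 26.8 ± 2.96) and Ltbp2 (12.4 ± 1.33 and 16.1 ± 1.97; anti-CD4 first, SD, n = 6 each). The Ltbp1 and Ltbp3 levels overlapped between tumours, at 28.3 to 36.1 and 28.5 to 30.7 in anti-CD4 tumours and 25.8 to 32.8 and 22.2 to 30.5 in PBS tumours (Ltbp1 first). Among receptors the order was Tgfbr3, at 75.9 ± 5.5 in anti-CD4 and 58.5 ± 8.3 in PBS tumours, then Tgfbr2 (49.4 ± 2.83 and 40.3 ± 3.85) and Tgfbr1 (15.5 ± 1.25 and 15.5 ± 1.05). Among ligands Tgfb3, at 27.7 ± 1.94 in anti-CD4 and 22.4 ± 1.68 in PBS tumours, and Tgfb1, at 26.9 ± 0.404 and 29.6 ± 2.55, overlapped in anti-CD4 tumours, whereas Tgfb1 lay above Tgfb3 in PBS tumours without overlap. Tgfb2 was far lower, at 0.836 ± 0.349 in anti-CD4 and 0.494 ± 0.179 in PBS tumours. Divided by the longest transcript, which for Tgfb1 is 2.57 kilobases long against 5.04 kilobases of merged exons, Tgfb1 came to 52.7 in anti-CD4 and 57.9 in PBS tumours, above Tgfb3 in both groups, so the order of these ligands depends on the length used.

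The balance within each family was compared as the share of each gene in the summed level per kilobase. The share of Tgfb1 in the summed ligand level was 46, 48.7 and 50.3% in anti-CD4 tumours, against 52.6, 57.6 and 58.4% in PBS tumours, with no overlap. That of Tgfb3 was 48.1, 49.9 and 53% in anti-CD4 tumours, against 41, 41.6 and 46.1% in PBS tumours, again with no overlap. The differences were -7.82 and 7.25 percentage points, each with an exact two-sided permutation p = 0.00216 (adjusted p = 0.00541 over 10 shares), the smallest this design can give. Since the shares of a tumour add up to the whole, the lower Tgfb1 share and the higher Tgfb3 share are largely the same observation. Unlike the levels, a share does not depend on how libraries are scaled.

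In the receptor family the Tgfbr1 share was 9.81, 11.2 and 11.5% in anti-CD4 tumours, against 11.6, 13.5 and 17.3% in PBS tumours, without overlap (difference -2.67 points, exact permutation p = 0.00216, adjusted p = 0.00541). The Tgfbr1 level itself averaged 15.5 CPM per kilobase in both groups (log2 fold change 0.0033). Its lower share therefore largely restates the higher Tgfbr2 and Tgfbr3 levels in the sum. The Tgfbr3 share averaged 53.9 ± 1.09% in anti-CD4 and 51 ± 2.58% in PBS tumours (SD, n = 6 each; exact permutation adjusted p = 0.0476). That call held in 3 of the 12 tests that leave out a tumour, those without PBS 4, PBS 5 or anti-CD4 6 (difference 2.05 to 3.53 points over the 12). The Tgfbr2 share did not pass (-0.215 points, exact permutation adjusted p = 0.701). Among latent binding proteins the Ltbp2 share was 5.99, 6.75 and 7.71% in anti-CD4 tumours, against 8.22, 9.04 and 13.3% in PBS tumours, without overlap (-2.83 points, exact permutation p = 0.00216, adjusted p = 0.00541). The Tgfb2, Ltbp1, Ltbp3 and Ltbp4 shares did not pass, with differences of 0.569, 1.24, 0.36 and 1.22 points. Leaving out any 1 tumour kept the Tgfb1, Tgfb3, Tgfbr1 and Ltbp2 shares past the threshold in all 12 tests, with differences of -8.57 to -7.32, 6.65 to 7.93, -3.1 to -1.96 and -3.11 to -2.09 points.

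**Figure D3:**
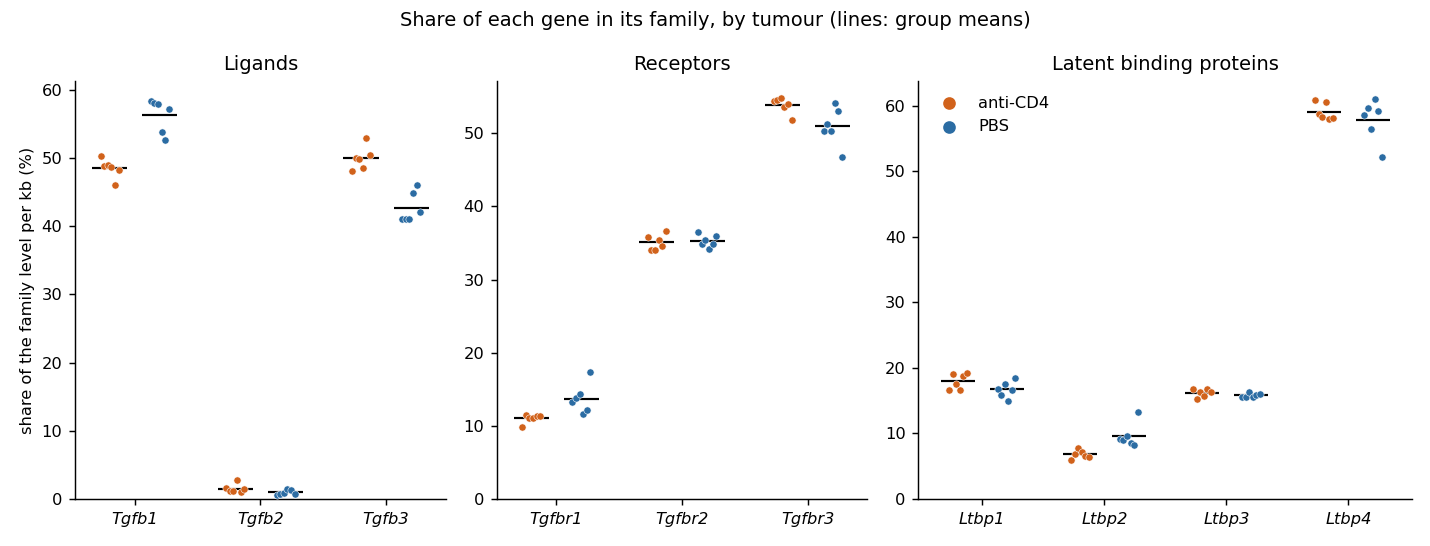
Percent share of each gene in the summed level per kilobase of its family, 1 point per tumour, anti-CD4 in orange and PBS in blue, with lines at the group means. The Tgfb1, Tgfb3, Tgfbr1 and Ltbp2 shares do not overlap between groups.

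Some pairs of the genes also varied together from tumour to tumour beyond the treatment. Correlations of log2 CPM (prior count 2) were taken over the 12 tumours after subtracting each group's mean, for all 45 pairs, and 4 pairs passed (permutation p of Pearson's r, adjusted over the 45). Tgfbr1 followed Ltbp2, with r = 0.91 (permutation adjusted p = 0.0094) and Spearman's rho = 0.78 (permutation adjusted p = 0.099). Within the groups r was 0.91 in anti-CD4 and 0.93 in PBS tumours, and without the 2 tumours farthest from the median in Tgfbr1 it was 0.78.

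Tgfbr2 followed Tgfbr3 (r = 0.89, permutation adjusted p = 0.014; rho = 0.91, permutation adjusted p = 0.013), at 0.75 within anti-CD4 and 0.93 within PBS tumours, and at 0.82 without the 2 tumours farthest out. Ltbp3 followed Ltbp4 (r = 0.93, permutation adjusted p = 0.016; rho = 0.85, permutation adjusted p = 0.099). That relation was close in PBS tumours (r = 0.98) and weak in anti-CD4 tumours (r = 0.25), and r was 0.79 without the 2 farthest tumours. Tgfbr2 followed Ltbp4 (r = 0.88, permutation adjusted p = 0.016; rho = 0.77, permutation adjusted p = 0.099), at 0.67 within anti-CD4 and 0.95 within PBS tumours, and at 0.66 without the 2 farthest. The points share library scaling, and within-group values rest on 6 tumours. Of the 45 pairs, 33 had a positive r, and by Spearman's rho 1 pair passed. Pairs among all genes tested were not counted, so these numbers have no background beside them.

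**Figure D4:**
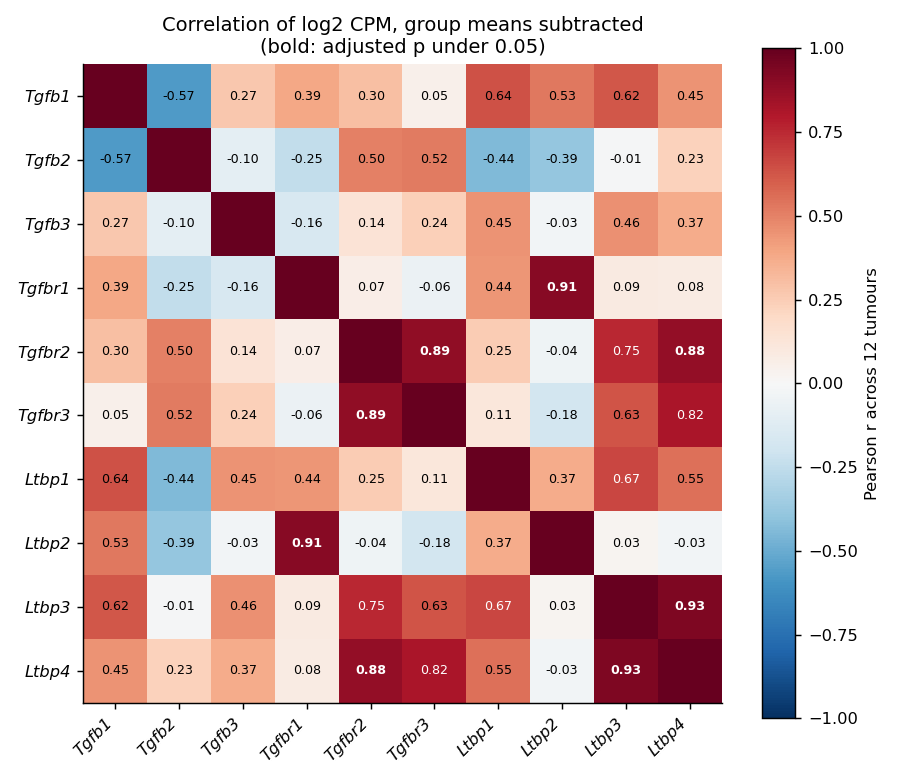
Pearson's r of log2 CPM over 12 tumours, group means subtracted, for each pair of the 10 genes, from -1 in blue to 1 in red, bold where the permutation adjusted p was under 0.05. The 4 bold pairs are Tgfbr1 with Ltbp2, Tgfbr2 with Tgfbr3, Tgfbr2 with Ltbp4 and Ltbp3 with Ltbp4.

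Ranking 16151 other protein-coding genes by the same correlation named the closest patterns, given without a test since they are the highest of many. Closest to Tgfbr2 were Col1a2 (r = 0.961, rho = 0.818), a chain of type I collagen, Ptdss1 (0.955, rho = 0.867), a phosphatidylserine synthase, and Col5a2 (0.955, rho = 0.818), a chain of type V collagen. Closest to Tgfbr3 were Fkbp9 (0.958, rho = 0.972), Stard13 (0.956, rho = 0.769) and Rnf11 (0.949, rho = 0.811). Closest to Ltbp2 were Id2 (0.951, rho = 0.916), Pgap2 (0.916, rho = 0.881) and Eif2s3y (0.914, rho = 0.888). For Tgfb1 they were Csk (0.963, rho = 0.867), Tmem101 (0.948, rho = 0.881) and Mboat7 (0.937, rho = 0.923), and for Tgfb2 Grb10 (0.961, rho = 0.923), Reck (0.96, rho = 0.951) and Coro2b (0.958, rho = 0.909). Tgfb3 had no pattern as close, with Pmepa1, a gene that TGF-beta induces, first at r = 0.843 (rho = 0.804), ahead of Ldb1 (0.832, rho = 0.867) and Pla2g6 (0.822, rho = 0.804). Between the groups Pmepa1 did not pass (log2 fold change -0.084, edgeR adjusted p = 0.405). Each r is over 12 tumours.

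Genes that act around the ligands and receptors changed in part. Of 15 genes that release or anchor latent TGF-beta, 2 rose and 0 fell (13.3% called, beside 5.28% of all genes tested, median log2 fold change 0.13). Thbs1, the thrombospondin that can free the ligand from its propeptide, averaged 354 ± 57.7 CPM in anti-CD4 and 252 ± 27 CPM in PBS tumours (SD, n = 6 each; edgeR adjusted p = 0.0263, log2 fold change 0.49, SE 0.10). Plat, the tissue plasminogen activator, averaged 31.1 ± 3.04 CPM in anti-CD4 and 22.7 ± 2.87 CPM in PBS tumours (0.46, SE 0.09, edgeR adjusted p = 0.0215), without overlap. The Thbs1 call was lost without any 1 of PBS 2, PBS 6 and anti-CD4 2, 5 and 6 (adjusted p up to 0.0659), and that of Plat without any 1 of PBS 3 and anti-CD4 2, 5 and 6 (up to 0.0611). The anchors on cell surfaces, Lrrc32, the GARP protein of regulatory T cells and platelets (0.12, SE 0.17, edgeR adjusted p = 0.677), and Nrros, its relative on myeloid cells (-0.30, SE 0.10, edgeR adjusted p = 0.0828), did not pass. Of 11 alternative fits, Nrros passed in 3 (DESeq2, limma voom and without anti-CD4 3 and 4 together) and Lrrc32 in 0. Both genes were named for their role after their values were seen.

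Of 10 microfibril partners of the latent binding proteins, 1 rose and 0 fell (median 0.18), and of 11 co-receptors and membrane regulators likewise 1 and 0 (median 0.089). With 5.28% of all genes tested called, single calls in lists of this size are near the background. The microfibril gene was Fbln5, an elastic fibre assembly protein, at 98.9 ± 9.39 CPM in anti-CD4 and 73.9 ± 6.33 CPM in PBS tumours (SD, n = 6 each; 0.42, SE 0.072, edgeR adjusted p = 0.0133), a call lost without anti-CD4 2 (adjusted p = 0.0512). The co-receptor gene was Cd109, a restraint on signalling, which averaged 114 ± 12.4 CPM in anti-CD4 and 83.9 ± 12.9 CPM in PBS tumours (0.44, SE 0.099, edgeR adjusted p = 0.033), a call lost without any 1 of PBS 2, 3, 5 and 6 and anti-CD4 2, 5 and 6 (adjusted p up to 0.0942). Dcn, the proteoglycan decorin, had a larger fold change (0.92, SE 0.27) and did not pass (edgeR adjusted p = 0.0636). It passed in 3 of 11 alternative fits, those with DESeq2, limma voom and the replicate block. Dcn too was named after its value was seen.

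Inside the cell, 3 of 16 Smad pathway genes rose and 1 fell (25% called, beside 5.28% of all genes tested, median 0.031). Smad4, the shared partner of the signalling Smads, averaged 148 ± 6.17 CPM in anti-CD4 and 129 ± 6.66 CPM in PBS tumours (SD, n = 6 each; 0.20, SE 0.046, edgeR adjusted p = 0.0337). Zfyve9, the anchor that presents Smads to the receptor, rose by 0.20 (SE 0.04, edgeR adjusted p = 0.0217), and Map3k7, the kinase TAK1 of the parallel branch, by 0.14 (SE 0.038, edgeR adjusted p = 0.047); for these and for Smad4 the groups did not overlap. Smad7, the inhibitor that TGF-beta itself induces, fell to 37.9 ± 7.14 CPM in anti-CD4 tumours, against 49.9 ± 4.03 CPM in PBS tumours (-0.40, SE 0.11, edgeR adjusted p = 0.0441). The Zfyve9 call was lost without any 1 of PBS 2 and 3 and anti-CD4 2, 5 and 6 (adjusted p up to 0.0801). Smad4 kept its call only without PBS 1, PBS 4 or anti-CD4 1 (up to 0.105), and Map3k7 (up to 0.135) and Smad7 (up to 0.0991) only without PBS 1 or anti-CD4 1.

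Of 28 genes known to respond to TGF-beta, 2 rose and 0 fell (7.14%, beside 5.28% of all genes tested; median 0.18). Id3, a transcriptional inhibitor that responds to the pathway in a context-dependent way, averaged 27.2 ± 1.8 CPM in anti-CD4 and 20.4 ± 3.92 CPM in PBS tumours (0.41, SE 0.11, edgeR adjusted p = 0.0417). Snai2, a transcription factor of mesenchymal cells, averaged 11 ± 1.08 CPM in anti-CD4 and 8.67 ± 0.838 CPM in PBS tumours (0.34, SE 0.093, edgeR adjusted p = 0.0469; SD, n = 6 each). Over single tumours left out, Id3 kept its call only without PBS 1, PBS 4 or anti-CD4 1 (adjusted p up to 0.0926), and Snai2 only without any 1 of those or anti-CD4 4 (up to 0.129). Itgae, the integrin chain of tissue-resident lymphocytes (-0.56, SE 0.20, edgeR adjusted p = 0.102), did not pass and was named after its values were seen. It passed in 1 of 11 alternative fits, that with DESeq2. Over all 98 genes of these lists and of the related ligands and receptors, 13 rose and 1 fell (14.3% called, beside 5.28% of all genes tested, of which 2.95% rose and 2.33% fell). The lists were chosen with earlier results of these data known, so the higher percentage is not independent evidence about the pathway. Over the fits that leave out a tumour the genes that rose numbered 29 to 1160 among all genes tested. Among the 98 the number that rose ran from 0 without anti-CD4 2 to 19 without PBS 1, and it was 2 without PBS 2 or PBS 3, 3 without PBS 6, 4 without PBS 5, 1 without anti-CD4 5 or anti-CD4 6 and 7 without anti-CD4 3 or anti-CD4 4; the number that fell was 1 without PBS 1 or anti-CD4 1 and 0 without any other tumour. Fibroblast marker sums are given above, and 4 genes (Col1a1, Col1a2, Col3a1 and Dcn) stand both in these lists and among the fibroblast markers; their part in the changes was not tested.

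**Figure D5:**
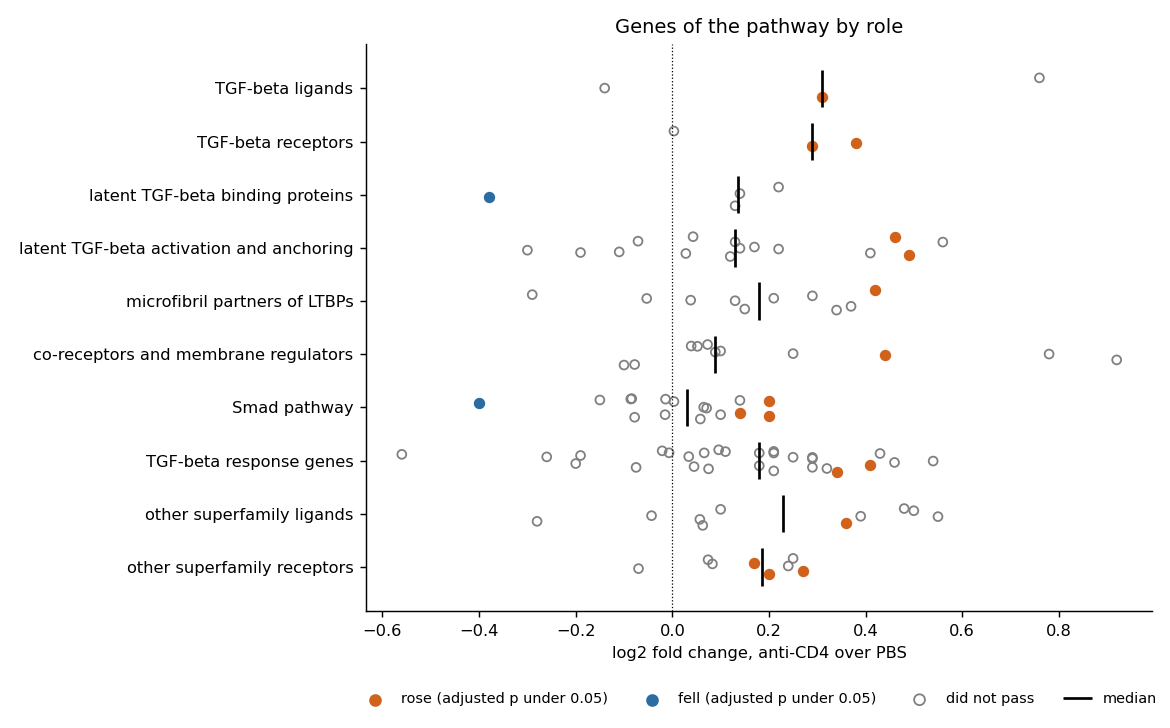
Log2 fold change, anti-CD4 over PBS, on the x axis, of every tested gene of each list, 1 point per gene, filled in orange where it rose, in blue where it fell and open where it did not pass. Vertical lines give the list medians, which lie between 0.031 for the Smad pathway and 0.31 for the ligands.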

How the data were processed

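The authors deposited estimated counts per gene for 12 bulk tumours; per the submitters' processing notes, bcl2fastq 2.20.0.422, kallisto and the build GRCm38.p6 were used. Per the labels' protocols, ribosomal and globin RNA were depleted and read pairs of 100 bases sequenced. The sources used here state no strand setting and no kallisto version. Of 35999 gene rows, 35973 matched GENCODE M21; 26 rows with date-like names held 0.227% of counts.

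Estimated counts were rounded to whole numbers, filtered by filterByExpr to 17940 genes, scaled by TMM and tested with edgeR 4.0.16 (R 4.3.3, robust quasi-likelihood, Benjamini-Hochberg over all genes tested), with no covariate. The procedure was tested on simulated data. CPM values are TMM-normalised. Shares within a family were tested by exact permutation over 924 assignments. Alternatives used DESeq2 1.42.0 and limma 3.58.1 with voom and sample weights, called limma voom throughout. Others used different scalings and filters, thinning, a covariate, a replicate block or left out each tumour. Genes were named by rule: the 10 genes, Cd4, the called genes of each pathway list, and the 3 closest patterns. Outside this rule, Lrrc32, Nrros, Itgae and Dcn were named after their values were seen. The genes and lists were chosen with earlier results of these data known. No 2 tumours of a group agreed within sampling noise (chi-square per degree of freedom 8.46 to 67.3 over 30 pairs).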

Additional observations from a re-analysis of the deposited data

Results flagged for a closer look

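In 78 groups of 6 values examined, 6 had 1 tumour far from the other 5 by Dixon's criterion, which chance gives in about 1 of 20 groups. Anti-CD4 4 accounted for 4 of them. It was at 8.83 CPM in Tgfb2, where the others of its group had 3.44 to 4.81 CPM, and its Tgfb2 share of the ligand level was 2.81%, against 1.01 to 1.57%. It was also at 448 CPM in Tgfbr2 (others 383 to 407) and at 177 CPM in Dcn (others 83.1 to 115). This tumour had the highest summed fibroblast (34364 CPM), skeletal muscle (1338 CPM) and adipocyte (309 CPM) marker levels of the 12; their part in these values was not tested. The Tgfbr1 share of the receptor level was 9.81% in anti-CD4 1, where the others of its group had 11 to 11.5%. The Ltbp2 share of the latent binding protein level was 13.3% in PBS 6, against 8.22 to 9.64% in the other PBS tumours, and PBS 6 had the lowest fibroblast marker sum (14988 CPM).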

How the results depend on the processing

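Counts of genes higher and lower, with the 10 genes and then the 98 pathway genes, were 529 and 418 (3 and 1; 13 and 1) as reported. They were 1337 and 1157 (5 and 1; 21 and 3) with DESeq2, 2809 and 3169 (5 and 1; 34 and 2) with limma voom, and 272 and 251 (3 and 1; 8 and 0) with no filter. They were 179 and 325 (2 and 2; 4 and 1) with upper quartile scaling, and 378 and 705 (1 and 1; 7 and 1) without anti-CD4 3 and 4 together. With the library total as covariate they were 0 and 5 (0 and 0; 0 and 0), with 2193 genes, 6 of the 10 and 21 pathway genes at an unadjusted p under 0.05 in edgeR; DESeq2 without the covariate gave the counts above. Leaving out 1 tumour gave 29 to 1160 genes higher and 31 to 1480 lower, 0 to 4 and 0 to 1 of the 10, and 0 to 19 and 0 to 1 of the pathway genes. The causes were not tested.

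The labels do not state whether the numbers given to tumours pair animals. Over all genes tested, with group means subtracted, same-numbered tumours correlated at -0.41 to 0.23. Of these pairs 2 were above 0.1, and 0 tumours were closest to their own number. Taken over all genes in 6 tumours per group, these values cannot decide whether the numbers mark pairs. A fit with the replicate block gave 19 and 14 genes (0 and 0; 2 and 0), with 4237 genes, 7 of the 10 and 35 pathway genes at an unadjusted p under 0.05 in edgeR. Paired exact tests with the replicate block, whose smallest p is 0.0312, gave -7.82 points for Tgfb1, 7.25 for Tgfb3, -2.67 for Tgfbr1 and -2.83 for Ltbp2 (exact permutation adjusted p = 0.0781 each), and 2.89 for Tgfbr3 (exact permutation adjusted p = 0.125). The Tgfbr3 share also missed the threshold in thinned libraries (2.81 points, exact permutation adjusted p = 0.0519) and without anti-CD4 3 and 4 together (2.71 points, exact permutation adjusted p = 0.127).

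Leaving out 1 tumour gave share differences of 2.05 to 3.53 points for Tgfbr3, 0.312 to 0.671 for Tgfb2, -0.543 to 0.0261 for Tgfbr2 (0.00835 without anti-CD4 2 and 0.0261 without PBS 1), 0.903 to 1.61 for Ltbp1, 0.252 to 0.539 for Ltbp3 and 0.0906 to 1.84 for Ltbp4. The Tgfbr1 log2 fold change turned to -0.014 with the stricter filter, -0.017 with thinning, -0.0061 with other library sizes, -0.057 with the covariate, -0.043 with upper quartile scaling and -0.034 without anti-CD4 3 and 4 together; over single tumours left out it was -0.024 to 0.045. Lrrc32 turned to -0.012 with voom and -0.0025 without anti-CD4 3 and 4 together, and was -0.056 to 0.20 over single tumours left out. Tgfb2 rests on the fewest counts of the 10 genes, 78 to 444 per tumour; its coefficient of variation was 41.8% in anti-CD4 and 36.3% in PBS tumours, and thinning gave a log2 fold change of 0.75.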

Other observations

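The related BMP and activin branch of the superfamily was also measured. Of 10 other ligands, 1 rose and 0 fell (10.0% called, median log2 fold change 0.23). Across all genes tested, 5.28% were called, 2.95% higher and 2.33% lower. Bmp2, a ligand of bone and vessel development, averaged 32.1 ± 1.71 CPM in anti-CD4 and 25 ± 3.76 CPM in PBS tumours (SD, n = 6 each; log2 fold change 0.36, edgeR adjusted p = 0.0361). Of 8 other receptors, 3 rose and 0 fell (37.5% called, median 0.19). Bmpr1a, a type I BMP receptor, rose by 0.27 on the log2 scale (edgeR adjusted p = 0.0328), Bmpr2, the type II BMP receptor, by 0.20 (edgeR adjusted p = 0.035), and Acvr1, a type I receptor of BMPs and activins, by 0.17 (edgeR adjusted p = 0.0487). In Bmpr2 and Acvr1 every anti-CD4 tumour lay above every PBS tumour. Both lists were chosen with earlier results of these data known, and each of these 4 calls is lost without any 1 of PBS 2, 3, 5 and 6 and anti-CD4 2, 5 and 6, among others (adjusted p up to 0.117).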
